A study of Mus musculus with 8 samples.

Results

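Regulatory T cells (Treg) of the intact mouse spleen were compared with the other CD4+ T cells (nonTreg) of the intact spleen by gene expression microarray. The comparison uses 2 of the 8 arrays of the series, Spleen_Treg_intact and Spleen_nonTreg_inatct (the title is spelled so), with 1 array per group. Both libraries came from untreated mice, and RNA was extracted with TRIzol LS. The labels used here give no strain, sex, age or number of animals for the spleen, and do not say how Treg were separated from nonTreg or whether animals were pooled. The other T cell arrays of the series hold Treg and nonTreg from the ischemic brain of wild type (WT) mice at day 14 after stroke, again 1 array each, and are set beside the spleen only where stated. The remaining 4 arrays hold whole brain tissue and were not used.

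Treg are the CD4+ T cells that restrain other immune cells. The X-linked transcription factor Foxp3 defines the lineage, and most Treg carry a high-affinity receptor for interleukin 2 (IL-2), which they need to survive but hardly make themselves. IL-2 acts through the kinases Jak1 and Jak3 and the factor STAT5, which in turn drives the receptor chain Il2ra and feedback inhibitors of the SOCS family. Treg are known to act on other cells through Ctla4, through surface enzymes that turn extracellular ATP into adenosine, through activation of latent TGF-beta, and through cytokines.

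The values are processed spot signals of a one-colour Agilent array, in linear brightness units. Signals of different probes cannot be set against each other, so levels are compared between the libraries gene by gene, apart from the summed signal of a marker list. Differences are log2 values of spleen Treg minus spleen nonTreg after each array was divided by its 75th percentile over the probes well above background on all 4 T cell arrays. That step divided the spleen Treg signals by 1.13 relative to spleen nonTreg. Where a gene was well above background on only 1 of the 2 arrays, the difference is a lower bound and is written as "at least". A signal not well above background is called background-level. A gene was called at a 2-fold difference. With 1 array per group there is no replicate error and no test, so each count and fold describes 2 libraries only, and precision is limited by the number of arrays. 

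Of 22911 genes with a named probe, 12649 were well above background on 1 or both of the spleen arrays. For 103 of these the bound was no difference, and 12546 were compared, 11590 of them measured on both arrays. At least 2-fold higher in spleen Treg were 675 genes, 5.38% of those compared, and at least 2-fold lower were 406 genes, 3.24%. Over probes in place of genes, 1302 of 28717 (4.53%) were higher and 863 (3.01%) lower. At 8-fold the counts over genes were 73 higher and 42 lower, and at 16-fold 19 higher and 13 lower. The median difference over all genes was -0.01, and 93.9% of the genes measured on both arrays lay within 2-fold. Differences of that size were few, and more of them were on the higher side.

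**Figure D1:**
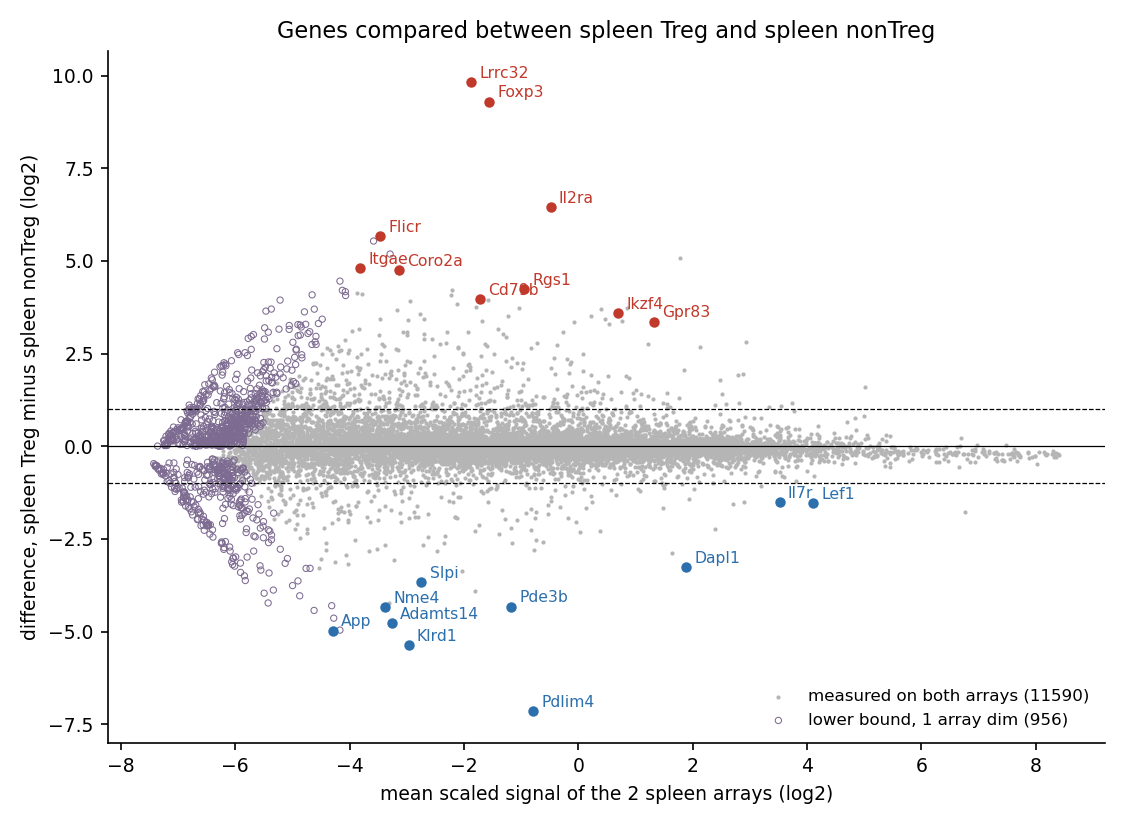
Difference between spleen Treg and spleen nonTreg (log2, vertical) against the mean scaled signal of the 2 arrays (log2, horizontal) for the 12546 genes compared. Grey points were measured on both arrays, open circles are lower bounds, dashed lines mark 2-fold, and named genes higher in spleen Treg are red and lower ones blue. Lrrc32, Foxp3 and Il2ra stand highest and Pdlim4 lowest.

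The counts depended on the signal used. With normexp correction of the median spot signals and an offset of 50, which shrinks differences of low signals, they were 251 higher and 132 lower, and 29 of the called genes described below came under 2-fold: Ccl4, Ccr4, Ccr8, Ciita, Cx3cr1, Fgl2, Fosl2, Gnaq, Gpr15, Gzmk, H2-Ab1, H2-Eb1, Hk2, Il1r1, Irf4, Itgb8, Ly6d, Nfil3, Nr4a2, Nr4a3, P2ry10, P4ha2, Pdcd1, Pou2f2, Slc2a3, Tigit, Wnt10a, Xcl1 and Zbtb16. Each kept its direction. The shares of the correction, the offset and the input signal in this were not tested.

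The spread between repeated spots and between spike-ins was small beside these differences. Neither covers variation between libraries, which 1 array per group cannot give. Probes printed as several spots had a median SD between spots of 0.04 (log2) on both arrays, from 280 probes on spleen Treg and 278 on spleen nonTreg, and no spot was saturated. The 8 of 10 spiked-in control transcripts that were measured differed by -0.08 to 0.08 after scaling. Well above background were 49.9% of probes on spleen Treg and 47.6% on spleen nonTreg. Per the file headers the arrays share 1 scan time, so no scan batch could be split. The brightest gene not called well above background had a signal of 11.6 in spleen Treg and 13.1 in spleen nonTreg, and the dimmest gene called well above background 9.0 in spleen Treg and 9.9 in spleen nonTreg. Among differences, the smallest called higher was 1.003, and the largest not called 0.9996.

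Markers matched the labelled cell type. Of 12 T cell markers all 12 were compared and none differed by 2-fold (median -0.10). Cd3e, a chain of the T cell receptor complex, had a signal of 27580 in spleen Treg and 26946 in spleen nonTreg, a difference of -0.14. Cd4 had 4476 in spleen Treg and 5879 in spleen nonTreg, a difference of -0.57. Cd8a was not well above background on either array, whereas the Cd8b1 probe had 961.0 in spleen Treg and 995.2 in spleen nonTreg.

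Markers of other cells were mostly at background. Of 14 macrophage and monocyte markers 11 were not well above background on either array, and the other 3 (Itgam, Csf1r and Cd68) differed by under 2-fold. Of 9 dendritic cell markers 8 were at background, and the ninth, Siglech, had 21787 in spleen Treg and 19047 in spleen nonTreg. Lists of plasma cell, neutrophil, mast cell and basophil, erythroid, platelet and stromal markers had 4 of 6, 7 of 11, 6 of 7, 6 of 7, 7 of 8 and 10 of 12 members with a probe at background, and none of their compared members differed by 2-fold. Some members were bright. The summed signal of the neutrophil list was 21846 in spleen Treg and 22770 in spleen nonTreg, and of the plasma cell list 2533 and 1443. Whether these probes and the Siglech probe read other transcripts or cells was not tested. NK cell and B cell markers differed, and their values stand beside the groups they move with.

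The promoters of Foxp3, of Il2ra and of Cish are shown because these genes stand for the lineage factor, the IL-2 receptor chain and a feedback target of that receptor, all well over 2-fold higher in spleen Treg. Sequences are from RefSeq, build GRCm38.p6, and run from 250 bases before to 50 bases after the annotated start, 5′ to 3′ on the gene's strand. The Foxp3 window is chrX:7579426-7579725 (plus strand), the Il2ra window chr2:11642542-11642841 (plus strand) and the Cish window chr9:107296409-107296708 (plus strand). Capitals mark TTCNNNGAA, the core letters of a STAT5 site, which reads the same on both strands, and GTAAACA, a forkhead motif searched on both strands.
Foxp3: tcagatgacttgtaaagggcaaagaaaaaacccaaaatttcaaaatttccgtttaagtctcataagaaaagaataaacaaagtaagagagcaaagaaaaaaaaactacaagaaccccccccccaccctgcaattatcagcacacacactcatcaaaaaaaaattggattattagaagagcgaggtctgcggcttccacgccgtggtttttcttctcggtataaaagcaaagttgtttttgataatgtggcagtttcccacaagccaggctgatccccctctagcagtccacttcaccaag
Il2ra: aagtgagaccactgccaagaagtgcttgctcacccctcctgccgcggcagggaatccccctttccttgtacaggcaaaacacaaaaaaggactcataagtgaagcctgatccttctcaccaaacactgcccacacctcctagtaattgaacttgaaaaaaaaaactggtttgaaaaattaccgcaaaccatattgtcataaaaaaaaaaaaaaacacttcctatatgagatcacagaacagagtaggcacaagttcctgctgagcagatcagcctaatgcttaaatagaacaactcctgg
Cish: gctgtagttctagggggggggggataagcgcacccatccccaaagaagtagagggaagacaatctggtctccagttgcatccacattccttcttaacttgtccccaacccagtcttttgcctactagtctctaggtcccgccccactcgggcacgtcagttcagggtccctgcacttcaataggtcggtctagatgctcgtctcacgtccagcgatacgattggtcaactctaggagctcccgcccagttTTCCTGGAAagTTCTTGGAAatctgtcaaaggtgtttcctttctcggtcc
Cish held 2 copies of TTCNNNGAA, both just after the annotated start and not overlapping, and neither motif was found in the Foxp3 or Il2ra window. Of the 7 IL-2 pathway genes called higher, 5 had a promoter in the table, and Cish was the one with the motif. Of genes with a promoter in the table, 55 of 516 called higher held TTCNNNGAA, 23 of 312 called lower (7.37%) and 866 of all 10038 compared (8.63%). GTAAACA was present in 3.49% of the genes called higher, 3.53% of those called lower and 3.18% of all compared. A match is a description of letters and not a bound site.

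Lrrc32 and Foxp3 had the largest differences of all genes compared. Foxp3 had a signal of 7017 in spleen Treg, against a background-level 9.7 in spleen nonTreg, at least 630-fold higher. Lrrc32, whose product GARP holds latent TGF-beta on the Treg surface, had 10094 in spleen Treg, against a background-level 4.4 in spleen nonTreg, at least 906-fold higher. Both were thus bright in one library and at background in the other. Il2ra, the IL-2 receptor alpha chain CD25, had 5473 in spleen Treg and 55.2 in spleen nonTreg and was the highest gene measured on both arrays, at 88.0-fold.

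Of 20 Treg core genes, 19 were at least 2-fold higher in spleen Treg and none was lower, with a median difference of 3.23 against -0.01 over all genes, and of 2.96 over the 16 measured on both arrays. Ikzf4 (Eos) and Ikzf2 (Helios), Ikaros-family transcription factors, had 4611 and 3725 in spleen Treg, against 337.8 and 302.9 in spleen nonTreg, 12.1-fold and 10.9-fold higher. Ctla4, the inhibitory receptor that competes for the ligands of Cd28, had 624.4 in spleen Treg and 64.8 in spleen nonTreg, 8.55-fold higher. Gpr83, a G protein-coupled receptor long used as a Treg marker, was 10.3-fold higher. Nrp1, a semaphorin receptor, was 6.81-fold higher, and Izumo1r (folate receptor 4) 3.05-fold. The member under 2-fold was Il10, encoding an inhibitory cytokine, with 17.8 in spleen Treg, against a background-level 2.4 in spleen nonTreg, a bound of 0.67. Lists overlap, and Treg core genes such as Il2ra, Il2rb, Socs2, Tnfrsf4, Tnfrsf18, Entpd1 and Nt5e are counted again in lists below. Every list count is to be read beside the shares over all genes compared, 5.38% higher and 3.24% lower. A list with 1 or 2 called genes is not read as a result about the list.

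**Figure D2:**
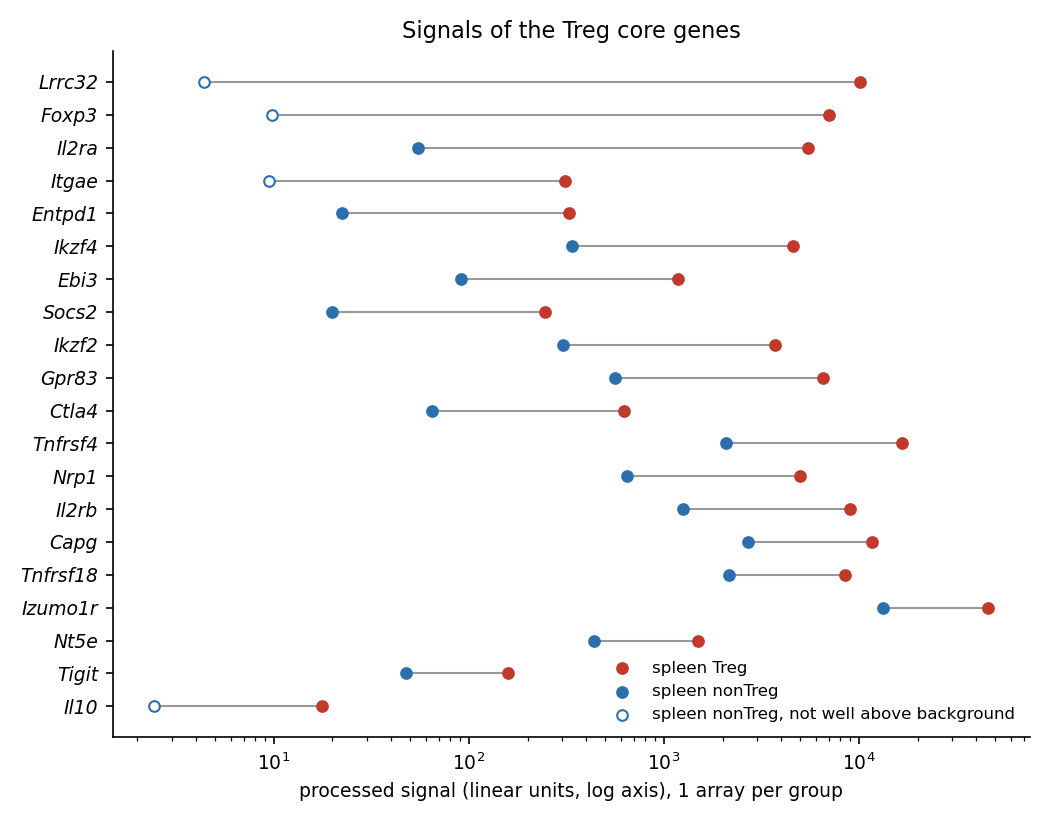
Processed signal (linear units, log axis) of the 20 Treg core genes in spleen Treg (red) and spleen nonTreg (blue), 1 array each. Open circles were not well above background. Every red point lies right of its blue point, from Lrrc32 (at least 906-fold) down to Il10 (at least 1.59-fold).

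Next to Foxp3 on the X chromosome lie Flicr and Ccdc22. Flicr, a long noncoding RNA, had 564.1 in spleen Treg, against a background-level 8.6 in spleen nonTreg, at least 50.6-fold higher. Ccdc22, on the other side, had 601.8 in spleen Treg and 1340 in spleen nonTreg, a difference of -1.33. The 2 neighbours of Foxp3 therefore lay on opposite sides of 0. Whether the probes read spliced RNA of each neighbour alone was not tested.

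Of 15 genes of the IL-2 receptor and STAT5 pathway compared, 7 were higher in spleen Treg and 1 was lower (median 0.85). Those higher included Il2ra, Il2rb and 3 feedback genes. Il2rb, the beta chain shared with the IL-15 receptor, had 9005 in spleen Treg and 1259 in spleen nonTreg, 6.35-fold higher, whereas the common gamma chain Il2rg had 11736 in spleen Treg and 11506 in spleen nonTreg, a difference of -0.14. Cish and Socs2, feedback inhibitors of cytokine receptors, had 2481 and 244.8 in spleen Treg, against 215.4 and 19.9 in spleen nonTreg, 10.2-fold and 10.9-fold higher. Socs1, of the same family, was 2.85-fold higher, while Socs3 was at 0.18. The kinase Pim1 and the survival factor Bcl2 were just past 2-fold, at 2.24-fold and 2.07-fold.
Jak1 (-0.16), Stat5a (0.30) and Stat5b (0.15) differed by less than 2-fold, and Jak3 by 0.85. Il7r, the receptor chain for interleukin 7, was the lower member, with 5564 in spleen Treg and 14013 in spleen nonTreg, 2.84-fold lower. Il2 itself was not well above background on either array.

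Checkpoint receptors and ligands were higher in part. Of 19 compared, 5 were higher and none lower (median 0.48). Besides Ctla4 these were Pdcd1lg2 (PD-L2), with 475.8 in spleen Treg and 67.3 in spleen nonTreg (6.28-fold), and Cd86, a ligand of Ctla4 and Cd28, with 476.6 in spleen Treg and 75.9 in spleen nonTreg (5.57-fold). Another Cd86 probe gave 1.29 where the probe used gave 2.48. Tigit was 2.95-fold higher and Pdcd1 (PD-1) 2.03-fold, while Lag3 (0.63), Icos (0.47), Btla (-0.16) and Cd28 (-0.27) were under 2-fold. Havcr2 (TIM-3) was not well above background on either array.

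Of 12 TNF receptor family genes compared, 4, all receptors that costimulate T cells, were higher in spleen Treg and none was lower (median 0.44). Tnfrsf4 (OX40) had 16588 in spleen Treg and 2084 in spleen nonTreg, 7.06-fold higher. Tnfrsf9 (4-1BB) had 940.9 in spleen Treg and 108.4 in spleen nonTreg, 7.70-fold higher. Tnfrsf18 (GITR) was 3.46-fold higher and Tnfrsf1b (TNF receptor 2) 3.16-fold, whereas the death receptor Tnfrsf1a (-0.34) and the costimulatory receptors Cd27 (0.40), Tnfrsf25 (0.49) and Tnfrsf14 (-0.39) were under 2-fold. Of 10 TNF family ligands 1 was higher (10%, where 5.38% of all genes compared were higher). It was Lta (lymphotoxin alpha), with 1714 in spleen Treg and 548.4 in spleen nonTreg (2.77-fold). Fasl, the Fas ligand, was at -0.81.

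The 32 lineage transcription factors split both ways, with 7 higher, 5 lower and a median of 0.05. Besides Foxp3, Ikzf4 and Ikzf2, the higher ones were Hopx (1215 in spleen Treg, 249.6 in spleen nonTreg, 4.32-fold), Pou2f2 (3.17-fold), Id3 (2.42-fold) and Irf4 (2.20-fold). Hopx is a small homeodomain protein, Id3 an inhibitor of E proteins and Irf4 a factor of activated and effector lymphocytes. The lower ones were Id2, Eomes, Lef1, Myb and Runx3. Id2, the second E protein inhibitor, had 298.4 in spleen Treg and 947.1 in spleen nonTreg, 3.58-fold lower, so the Id2 and Id3 signals differed in opposite directions. Lef1, a Wnt-pathway factor of naive T cells, had 8256 in spleen Treg and 21130 in spleen nonTreg, 2.88-fold lower. Tcf7, its relative, was at -0.997, just short of the call. Ikzf1 (-0.57), Foxo1 (-0.80), Gata3 (0.53) and Tbx21 (-0.72) were under 2-fold.

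Of 16 TGF-beta pathway genes compared, 2 were higher and 2 lower in spleen Treg, 12.5% each (median 0.13). Over all genes compared, 5.38% were higher and 3.24% lower. Both higher ones, Lrrc32 and Itgb8, were at background in spleen nonTreg, and over the 14 genes measured on both arrays the median was -0.01. Itgb8, the integrin chain that with Itgav releases active TGF-beta, had 64.1 in spleen Treg, against a background-level 2.4 in spleen nonTreg, at least 5.76-fold higher. Itgav was at 0.96, the ligand Tgfb1 at 0.40 and Furin, the protease that cleaves its precursor, at 0.23. Tgfb3, a second ligand, had 30.2 in spleen Treg and 225.0 in spleen nonTreg, 8.41-fold lower. Tgfbr3, the betaglycan coreceptor, had 106.4 in spleen Treg and 457.4 in spleen nonTreg, 4.85-fold lower, while Tgfbr1 (0.94) and Tgfbr2 (-0.76) were under 2-fold.

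Of 12 genes compared from the list for extracellular ATP, NAD and adenosine, 5 were higher and none was lower (median 0.68). Entpd1 (CD39), which removes phosphates from ATP, had 326.9 in spleen Treg and 22.5 in spleen nonTreg, 12.9-fold higher. Nt5e (CD73), which makes adenosine, had 1496 in spleen Treg and 438.8 in spleen nonTreg, 3.02-fold higher. Both steps of the route to adenosine were thus higher in the Treg library. Cd38, an NAD hydrolase, was 5.70-fold higher and the ATP receptor P2rx7 2.70-fold. P2ry10, counted in this list by its name, was 2.09-fold higher, and whether it acts on nucleotides was not tested. The adenosine receptor Adora2a was at 0.50.

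Of 11 suppressive mediators compared, 7 were higher and none lower (median 1.60), and this list shares 6 of the 7 with lists above or below. Over the 9 measured on both arrays the median was 2.65. The rest were at background in spleen nonTreg, so they could not come out lower. Ebi3, a subunit of IL-35 and IL-27, had 1183 in spleen Treg and 91.6 in spleen nonTreg, 11.5-fold higher. Its IL-35 partner Il12a was not well above background on either array. Penk, encoding the precursor of enkephalin opioid peptides, had 1076 in spleen Treg and 61.4 in spleen nonTreg, 15.5-fold higher. Fgl2, a secreted fibrinogen-like protein, was at least 2.95-fold higher. Gzmb, Areg and Ido1 were not well above background on either array, and Lgals1 (galectin 1) was at -0.07.

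The 16 compared effector and tissue Treg genes included 8 higher and none lower (median 1.05). Of these 16, 6 were at background in spleen nonTreg and were compared through their spleen Treg signal alone, so they could not come out lower. Over the 10 measured on both arrays 4 were higher, and the median was 0.79. Itgae (CD103), an integrin chain for E-cadherin, had 311.7 in spleen Treg, against a background-level 9.4 in spleen nonTreg, at least 28.0-fold higher. Klrg1, an inhibitory lectin receptor of differentiated lymphocytes, had 189.3 in spleen Treg, against a background-level 4.9 in spleen nonTreg, at least 17.0-fold higher. Il1rl1 (ST2, the IL-33 receptor) had 171.6 in spleen Treg, against a background-level 2.5 in spleen nonTreg, at least 15.4-fold higher. All 3 were thus at background in the nonTreg library. Nfil3, a basic leucine zipper factor, was 3.41-fold higher and the chemokine receptor Ccr8 at least 3.50-fold. Prdm1 (Blimp-1) at 0.97, Maf at 0.62, Batf at 0.25 and, as a bound, Pparg at 0.77 were under 2-fold.

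**Figure D3:**
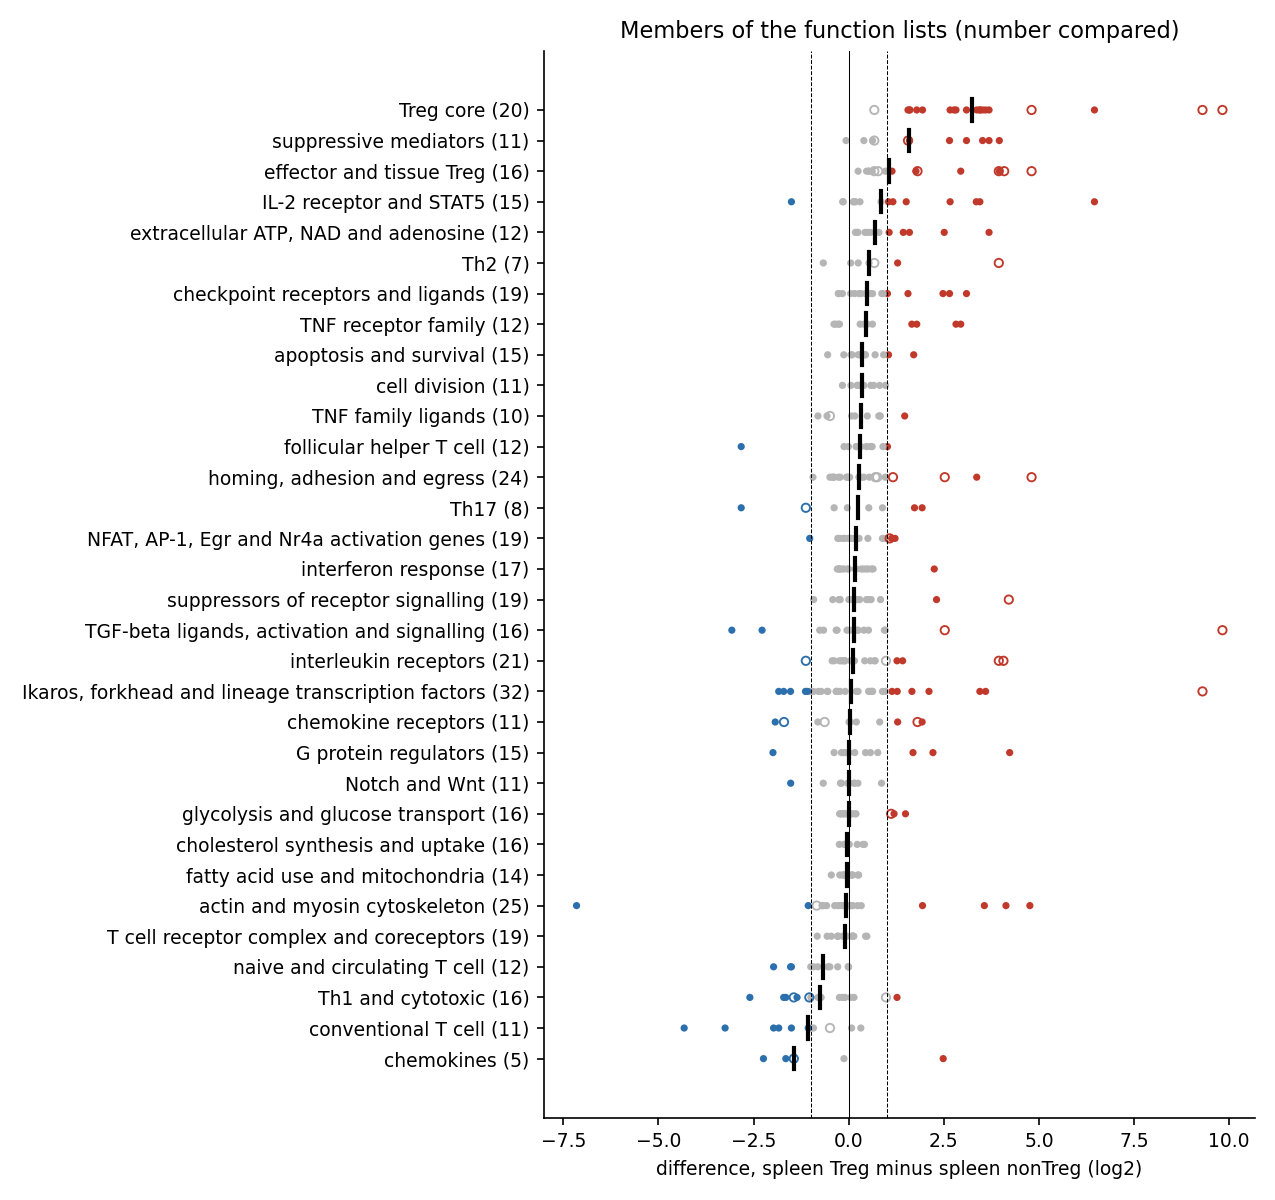
Difference between spleen Treg and spleen nonTreg (log2, horizontal) for every compared member of 32 gene lists, ordered from top to bottom by the list median (black bar), with the number compared in brackets. Red points are at least 2-fold higher, blue at least 2-fold lower, grey under 2-fold, and open circles are lower bounds. Treg core has the highest median (3.23) and chemokines the lowest (-1.44). The chemokine median is the value of Ccl4, a bound, in a list of 5. Over genes measured on both arrays the chemokine median was -0.89, and that of conventional T cell genes was -1.28.

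Interleukin receptors beyond IL-2 differed in 5 of 21 genes, 4 higher and 1 lower (median 0.11). Il1r2, the decoy receptor for interleukin 1, had 198.9 in spleen Treg, against a background-level 10.5 in spleen nonTreg, at least 16.8-fold higher. Il1r1, the signalling receptor for the same cytokine, was at background (2.3) in spleen Treg and had 17.2 in spleen nonTreg, at least 2.18-fold lower. The decoy and the signalling receptor therefore lay on opposite sides. Il10ra was 2.67-fold higher and Il12rb1 2.41-fold.

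Chemokine receptors and homing genes differed in a few members. Of 11 chemokine receptors, 3 were higher and 2 lower (median 0.05). Ccr6, a receptor for Ccl20, had 1851 in spleen Treg and 431.0 in spleen nonTreg, 3.81-fold higher, and Ccr4 was 2.44-fold higher. Cxcr6 had 245.9 in spleen Treg and 832.2 in spleen nonTreg, 3.81-fold lower, and Cx3cr1 was at background in spleen Treg and at least 3.25-fold lower. Ccr7, the lymph node homing receptor, was at -0.81. Of 5 chemokines, Cxcl10 was 5.59-fold higher and Xcl1 (4.72-fold), Ccl5 (3.14-fold) and Ccl4 (at least 2.72-fold) were lower. Among 24 homing, adhesion and egress genes 4 were higher and none lower (median 0.27): Itgae, Gpr83, Itgb8 and Gpr15, the last at least 2.24-fold. All but Gpr83 were at background in spleen nonTreg, and over the 19 genes measured on both arrays the median was -0.002. Cd44, a receptor for hyaluronan, was at 0.03.

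Naive and conventional T cell genes differed on the lower side where they differed by 2-fold. Of 12 naive and circulating T cell genes none was higher and 3 were lower, Igfbp4 (3.93-fold), Lef1 and Il7r, with a median of -0.68. Of 11 conventional T cell genes 6 were lower and none higher (median -1.06), where 3.24% of all genes compared were lower. Igfbp4 and Il7r are in both lists and are counted as lower in each. Pde3b, which degrades cyclic AMP, had 80.4 in spleen Treg and 1429 in spleen nonTreg, 20.0-fold lower, and another Pde3b probe gave -4.71 against -4.32 for the probe used. Dapl1 had 979.7 in spleen Treg and 8261 in spleen nonTreg, 9.50-fold lower. Klf2 (-0.55), S1pr1 (-0.49) and Txnip (-0.01) were under 2-fold.

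The lowest genes were not all T cell markers. Pdlim4, a PDZ and LIM domain protein of the actin cytoskeleton, had 39.5 in spleen Treg and 4981 in spleen nonTreg, 142-fold lower, the lowest of all genes measured on both arrays. Its neighbour on the chromosome P4ha2 (prolyl 4-hydroxylase subunit) was at background (2.3) in spleen Treg and had 55.9 in spleen nonTreg, a bound of -2.83. Adamts14, a metalloprotease, had 16.3 in spleen Treg and 395.9 in spleen nonTreg, 27.4-fold lower. Nme4, a mitochondrial nucleoside diphosphate kinase, had 17.3 in spleen Treg and 312.3 in spleen nonTreg, 20.4-fold lower, and another Nme4 probe, at background in spleen Treg, gave a bound of -3.67. P4ha2 was thus at background in spleen Treg, while the other 3 stayed dim but measurable there.
Nacc2 was 18.6-fold lower, Dntt (terminal deoxynucleotidyl transferase) 10.2-fold, Myo10 9.81-fold, Fam240a 9.12-fold and Appl2 8.30-fold. Slpi, a secreted protease inhibitor, was 12.7-fold lower by the probe used (-3.66), while a dimmer probe gave -0.999. Lypd6b was at -3.89 and by another probe at -1.74, Wnt5b was 8.74-fold lower, and Adgrg3, an adhesion receptor, was at -2.93 while its other probe gave a bound of 0.75 the other way.
Among genes at background in spleen Treg, the largest bounds were App (amyloid precursor protein, 6.2 in spleen Treg and 247.5 in spleen nonTreg, at least 31.4-fold lower), Atp8b4 (a phospholipid flippase, at least 31.1-fold), Lrrc75b (24.9-fold), Fam205a2 (21.5-fold), Amz1 (19.7-fold), Htr1b (a serotonin receptor, 18.7-fold), Naif1 (16.4-fold) and Crnde (a noncoding RNA, 14.7-fold), each an "at least".

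Of 16 Th1 and cytotoxic genes compared, 6 were lower in spleen Treg, 1, Il12rb1, was higher and 9 were under 2-fold (median -0.77). Among those lower, Gzmk and Ccl4 were at background in spleen Treg, so they could not come out higher. Il18rap was at background in spleen nonTreg and could not come out lower. Over the 13 genes measured on both arrays the median was -0.72. Gzma (granzyme A) had 15.5 in spleen Treg and 83.2 in spleen nonTreg, 6.05-fold lower. Eomes was 3.27-fold lower, Prf1 (perforin) 2.56-fold and Gzmk at least 2.05-fold. Ifng had 204.5 in spleen Treg and 202.4 in spleen nonTreg, a difference of -0.16. Among NK cell markers 6 of 9 compared were lower and none higher (median -1.36), and the summed signal of the list, set mostly by its brightest probes, was 1053 in spleen Treg and 2463 in spleen nonTreg. Both lists hold Eomes, Gzma, Prf1 and Nkg7, and of the 5 other NK cell markers compared 3 were lower. Klrd1 (CD94), a receptor chain of NK cells and some T cells, had 16.2 in spleen Treg and 594.7 in spleen nonTreg, 41.3-fold lower. The NK receptor Ncr1 was not well above background on either array, nor were Klre1, Klrc1 and Klra4. The part of these cells in the cytotoxic genes was not tested. In bulk RNA, fewer cells of a type and less RNA per cell cannot be told apart.

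Other helper programmes differed in some members, and the Th17 list in both directions, where 5.38% of all genes compared were higher and 3.24% lower. Of 7 Th2 genes, Il1rl1 and Ccr4 were higher, and Il4 was at -0.67. Of 8 Th17 genes, Ccr6 and Ahr (the aryl hydrocarbon receptor, 3.32-fold) were higher and Il21 and Il1r1 lower, while Il17a, Il17f and Il22 were not well above background on either array. Il21, a cytokine of helper T cells, had 24.2 in spleen Treg and 152.3 in spleen nonTreg, 7.09-fold lower, and was the lower one of 12 follicular helper genes. Pdcd1 was the higher one there, and Bcl6 (0.20) and Cxcr5 (0.20) were under 2-fold.

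B cell markers gave a mixed picture. Cd79b, a chain of the B cell receptor complex, had 981.6 in spleen Treg and 55.1 in spleen nonTreg, 15.8-fold higher. Cd74, the MHC class II invariant chain, was 5.68-fold higher and Ly6d 3.59-fold. Of the 12 markers 7 were not well above background on either array, among them Cd79a, Ms4a1 and Pax5, and Cr2 was at -0.12. The MHC class II genes H2-Ab1 (4.15-fold) and H2-Eb1 (2.05-fold) were lower in spleen Treg, Ciita was at least 2.03-fold higher and H2-Aa was at background on both arrays. Of the gamma delta and NKT cell list Zbtb16 was at least 6.86-fold lower, and of the innate lymphoid cell 2 list Il1rl1 was the member called, with Il5 and Arg1 at background on both arrays.

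**Figure D4:**
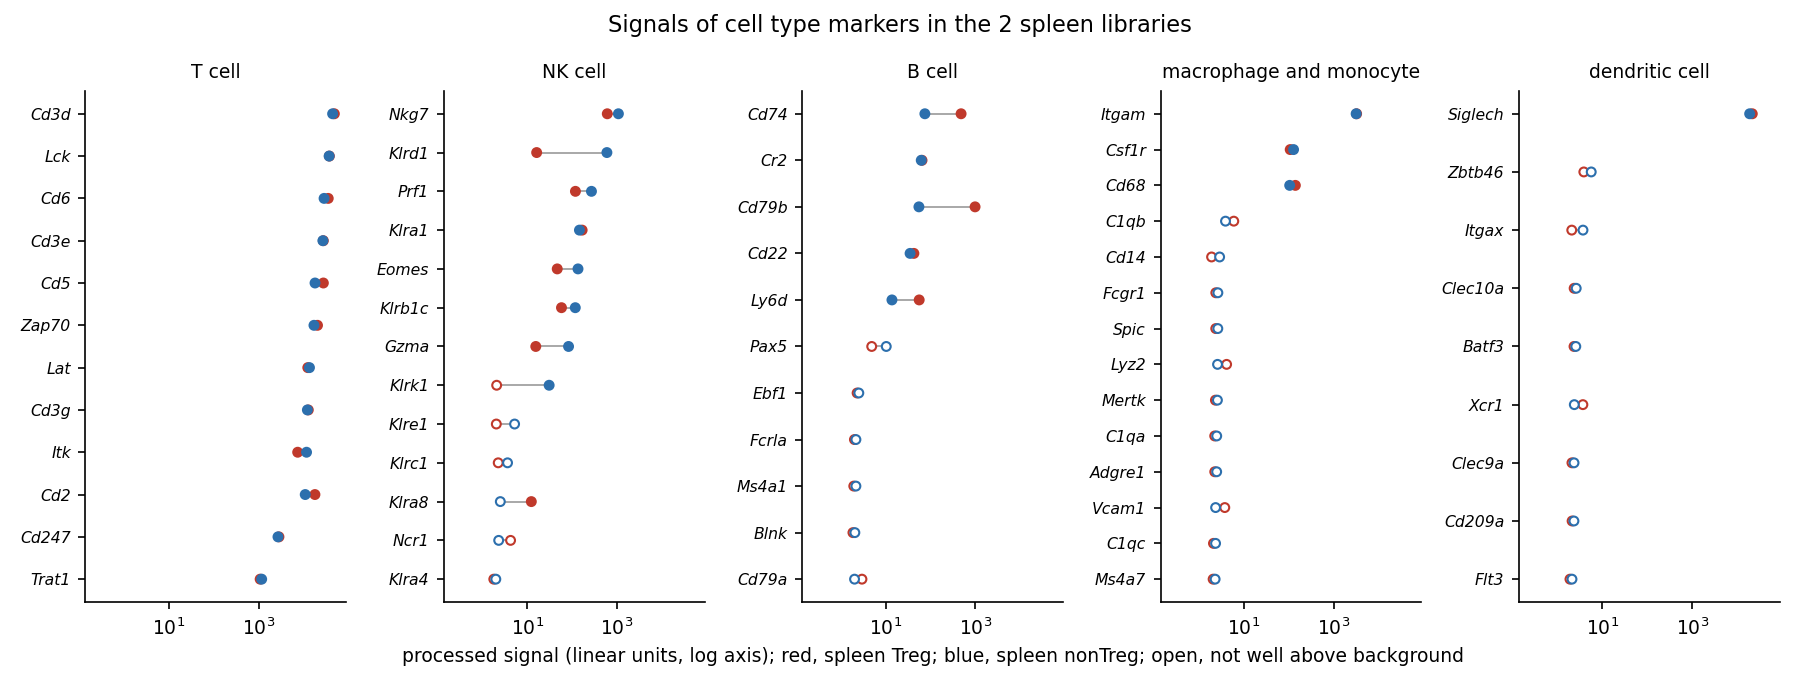
Processed signal (linear units, log axis) of 5 cell type marker lists in spleen Treg (red) and spleen nonTreg (blue), with open circles for values not well above background and 1 B cell marker not drawn. T cell markers lie within 2-fold of each other after scaling, most macrophage and dendritic cell markers are open, Klrd1 and Gzma are lower in spleen Treg, and Cd79b and Cd74 are higher.

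Some of the highest genes encode regulators of the cytoskeleton or of receptor signalling, though most members of those lists were under 2-fold. Coro2a, a coronin that binds actin, had 480.9 in spleen Treg and 15.7 in spleen nonTreg, 27.1-fold higher, and a second probe, at background in spleen nonTreg, gave a bound of 4.36. Myo1e, an unconventional myosin, had 234.8 in spleen Treg and 11.9 in spleen nonTreg, 17.6-fold higher. Swap70, an actin-binding signalling protein, was 11.8-fold higher and the capping protein Capg 3.84-fold. With Pdlim4 and Actn1 (2.09-fold) lower, 4 of 25 cytoskeletal genes were higher and 2 lower, around a median of -0.08, and most of the list was under 2-fold: Coro1a was at -0.14 and Lcp1 at -0.01.
Rgs1, which shortens signalling from chemokine receptors, had 1832 in spleen Treg and 86.6 in spleen nonTreg, 18.8-fold higher. Rgs16 was 4.64-fold higher and the G protein Gnaq 3.23-fold, Rgs11 was 3.97-fold lower, and the median of the 15 G protein regulators was 0.00. Rgs9, which is not in that list, was at least 46.5-fold higher. Of 19 suppressors of receptor signalling, Dusp4, a phosphatase for MAP kinases, was at least 18.5-fold higher and Spry1 4.95-fold.

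Further genes among the highest had no place in these groups. Noxa1, an activator of NADPH oxidase, had 503.0 in spleen Treg, against a background-level 12.2 in spleen nonTreg, at least 36.4-fold higher. Wfdc2 was at least 22.0-fold higher. Lamc1 (laminin gamma 1) was 17.2-fold higher, Tmem158 16.9-fold, the inhibitory receptor Lilrb4a 15.0-fold and the microtubule protein Map6 14.4-fold. A second Map6 probe gave 1.73 against 3.84. Of 159 further probes of called genes that were measured on both arrays, 150 had the sign of the probe used. Of the 159, 112 were at least 2-fold in that direction, so the rest did not repeat the call, and none was 2-fold the other way.

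Lists of the shared machinery of T cells held from none to a few called genes, where 5.38% of all genes compared were higher and 3.24% lower. The share higher was 18.8% for glycolysis, 15.8% for activation, 13.3% for apoptosis and survival and 5.88% for interferon response genes. At the overall shares lists this short hold few calls, so a list without any is not read as stable. None of 19 genes of the T cell receptor complex and its coreceptors differed by 2-fold (median -0.11), nor did any of 16 genes of cholesterol synthesis and uptake (-0.04), 14 of fatty acid use and mitochondria (-0.04) or 11 of cell division (0.35). Of 16 glycolysis genes 3 were higher, the lactate exporter Slc16a3 (2.81-fold), the glucose transporter Slc2a3 (2.28-fold) and Hk2 (at least 2.17-fold), with a median of 0.00. Of 17 interferon response genes Gbp3 was higher (4.75-fold; median 0.17). Of 19 activation genes Nr4a2 (2.33-fold), Nr4a1 (2.19-fold) and Nr4a3 (at least 2.11-fold) were higher, Fosl2 was 2.03-fold lower, and Fos (-0.29) and Egr1 (0.17) were under 2-fold. Another Nr4a3 probe gave -0.20. Of 15 apoptosis and survival genes Pmaip1 (3.27-fold) and Bcl2 were higher, and of 11 Notch and Wnt genes Wnt10a was 2.88-fold lower.

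The same contrast in the ischemic brain shares no array with the spleen. Over 11300 genes measured on all 4 arrays the spleen and brain differences had a Pearson r of 0.38 and a Spearman rho of 0.23, as a description across genes, which are not independent replicates and share probes and scaling. Of the 635 genes called higher in the spleen and compared in the brain, 157 (24.7%) were also at least 2-fold higher in brain Treg, against 4.63% of all genes compared there, and 10 were lower. Of 302 lower ones, 62 (20.5%) were lower in brain Treg too, against 2.86%, and 11 were higher. The shared genes made up 24.6% of the genes higher in brain Treg and 15.7% of those lower. The difference between spleen and brain was not tested.

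The Treg core differed by less in the brain, with 11 of 20 genes called and a median of 1.07. Foxp3 had 4717 in brain Treg and 820.5 in brain nonTreg, and Lrrc32 12660 in brain Treg and 1956 in brain nonTreg, so the brain nonTreg library held measurable levels of both. Ikzf4 (2.24), Swap70 (2.04), Tnfrsf9 (2.04) and Tmem158 (1.96) were among those called in both organs. Rgs1 (-0.08), Entpd1 (0.29), Coro2a (0.40), Cish (0.16) and Il2rb (-0.05) were under 2-fold in the brain. For the lower genes, Il21 was at -2.71 and Klrd1 at -1.59 in the brain, while Pdlim4 was at -0.41 and Pde3b at -0.67.

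**Figure D5:**
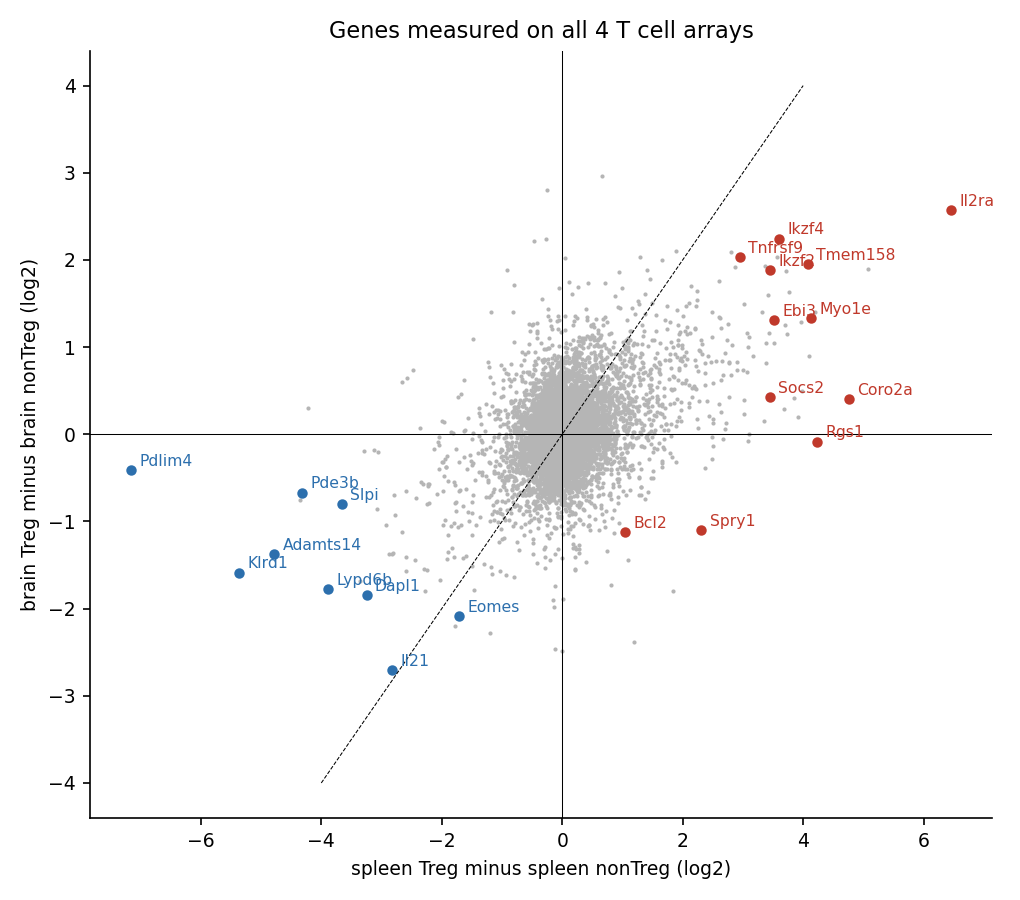
Brain Treg minus brain nonTreg (log2, vertical) against spleen Treg minus spleen nonTreg (log2, horizontal) for the 11300 genes measured on all 4 T cell arrays, 1 array per group. The dashed line marks equal differences, named genes higher in spleen Treg are red and lower ones blue. Il2ra and Ikzf4 lie high in both, Rgs1 and Coro2a lie near 0 in the brain, and Spry1 and Bcl2 lie on the other side of 0.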

How the data were processed

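RNA of spleen Treg and spleen nonTreg was measured on 1 Agilent one-colour array each. The deposited scanner files hold a processed intensity per spot, background-subtracted and on a linear scale, made with Agilent Feature Extraction 10.7.1.1 (protocol GE1_107_Sep09), per the file headers and the submitters' processing notes. The table deposited by the authors for the series gives a linear signal; set against the scanner values, it was each intensity divided by about the 75th percentile of its array (constant within 0.1% for 99.9% of probes; column medians 0.068 to 0.073). It was used as an alternative.

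Spots of a probe were averaged, and log2 intensities of the deposited files were scaled to the 75th percentile over the probes well above background on all 4 T cell arrays. Of 56605 probes, 32994 were named by RefSeq accession against the GRCm38.p6 gene table, which was used for names, neighbours and promoters. The array design names mm9, so no probe coordinates are given. Of several probes for a gene, the one brightest on average over the 4 arrays was used. Where 1 array was dim, the bound was taken against the higher of the dim value and the lowest signal among probes well above background there.

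With 1 array per group, no statistical test was made. Lists and compared genes were chosen with earlier results of these data known: 32 lists of functions and 16 of cell markers held 558 symbols, of which 432 were compared, 119 were not well above background, 5 had no probe, 1 no current symbol and 1 a bound of no difference. Named were the 16 highest and 16 lowest genes measured on both arrays, the 8 largest bounds each way, 7 fixed genes, and from each list the 4 largest differences each way or members named by role; predicted genes were passed over. The calculation of calls was checked on simulated arrays with known differences, which it recovered. Those differences were well over 2-fold, placed in genes clear of background, with noise of the size between spots. Calls near 2-fold, genes near background and variation between libraries were not covered. Alternatives were normexp (limma 3.58.1, offset 50, on the median spot and background signals, since the mean signal was not in the files used here), other scaling points, quantile and loess normalization, other filters and the median over probes. Python 3.11.15 and R 4.3.3 were used. Some listed genes are counted but not reported singly here.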

Additional observations from a re-analysis of the deposited data

Results flagged for a closer look

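A few genes were at least 2-fold apart in opposite directions in spleen and brain, 21 in all, and the difference between the organs was not tested. Of 635 genes higher in spleen Treg and compared in the brain, 10 were lower in brain Treg, against 2.86% of all genes compared there. Of 302 genes lower in spleen Treg, 11 were higher in brain Treg, against 4.63%. Opposite calls were thus no more frequent than such calls among all genes. Spry1, an inhibitor of growth factor receptor signalling, was higher in spleen Treg (2.31) and lower in brain Treg (-1.10). Ly6d was at 1.84 in the spleen and -1.80 in the brain, and Bcl2 at 1.05 in the spleen and -1.12 in the brain. Cx3cr1, the fractalkine receptor of macrophages, microglia and some T cells, was at -1.70 as a bound in the spleen and at 1.39 in the brain, where 10 of 14 macrophage and monocyte markers were also at least 2-fold higher in brain Treg; their part was not tested. Chosen after their values were seen, Fcmr was at 3.20 as a bound in the spleen and -1.55 in the brain, and Parva at -3.63 in the spleen and 3.09 in the brain, both as bounds. Each organ has 1 array per group, so these opposite signs rest on 4 arrays.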

How the results depend on the processing

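No paired analysis was possible because each group has 1 array. The counts of genes called higher and lower, 675 and 406, lay between 618 and 719 and between 380 and 439 with the 75th percentile over all probes, the median or the spike-ins as scaling point, quantile or loess normalization, the median over a gene's probes, or the deposited series table. They were 251 and 132 after normexp correction. Of genes well above background on both arrays 479 were higher and 227 lower, fewer because bounds drop out. With no filter on dim probes, and likewise with the scanner's positive-and-significant flag in place of the stricter one, they were 1309 and 1152, more because dim probes enter. Over probes they were 1302 and 863. The share of higher genes among those called ranged from 58.5% to 65.5% over the scalings and normexp, against 62.4%. It was 67.8% over genes well above background on both arrays and 53.2% with no filter.

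The Treg core median of 3.23 was 2.45 after normexp, 2.96 over genes measured on both arrays and 3.03 with the median over probes, and otherwise between 3.17 and 3.25. The B cell list median, 1.84 over 5 compared genes, was -0.00337 with no filter, where its 7 background-level members enter. Of 1998 values of 185 described genes under these alternatives none of a called gene changed sign, and 350 moved by more than the spread between spots. Beside normexp, calls ended for Bcl2 (0.99), Ciita (0.96) and Pdcd1 (0.96) with the percentile over all probes and likewise with the deposited series table, for Ciita and Pdcd1 also with the median or the spike-ins as scaling point (under all 4 Tcf7 became called, at -1.05 with the percentile), for Gzmk (-0.93) and Actn1 with loess, for Nr4a3 (0.98) and Ciita (0.92) with quantile normalization, and for Adgrg3 (-0.34), Ccl4 (-0.60), Cx3cr1 (-0.66), Fosl2 (-0.99) and Nr4a3 (0.76) with the median over probes, where Lag3 (1.27) and Tcf7 (-1.18) became called. Il10 (2.69) and Pparg (2.21) exceeded 2-fold with no filter or the positive-and-significant flag. The cause was not tested. Signals near background limit what bounds can show.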

Other observations

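Predicted genes, passed over by the rule for named genes and chosen here after their values were seen, included some of the largest differences. Gm4956 on chromosome 1 had 16260 in spleen Treg and 426.5 in spleen nonTreg, 33.8-fold higher, and was 3.73-fold higher in brain Treg. On chromosome 14, 9 predicted genes were at least 8-fold higher in spleen Treg (Gm3002, Gm3383, Gm3696, Gm10413, Gm10406, Gm5458, Gm5797, Gm5796 and Gm3317), from 8.05-fold to 13.6-fold. Whether probes of these neighbouring predicted genes read 1 shared transcript was not tested, so the 9 values are not counted as independent. Among 10053 unnamed probes compared, 413 were at least 2-fold higher in spleen Treg and 328 lower.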
